A study of Mus musculus with 4 samples.

Results

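The kinases that switch on NF-kB and the interferon regulatory factors were followed at the level of their transcripts. The set holds the IKK complex (Ikbkb for IKK-beta, Chuk for IKK-alpha and Ikbkg for the scaffold NEMO), the IKK-related kinases (Ikbke for IKK-epsilon and Tbk1), and a pair of kinases that act upstream of IKK (Map3k7 for TAK1 and Map3k14 for NIK). Members were chosen by symbol, with earlier results of these data known. All 7 were found, each on 1 of the 23700 rows of the tables and each above 1 FPKM in every library. The study sequenced total RNA from helper T cells (CD4 T cells) of the spleen of C57BL/6 mice 43 weeks old. The labels give the genotype wild type for 2 libraries (WT 1, WT 2) and RIPK1-KO for the other 2 (KO 1, KO 2), a deletion that the series text places in T cells only. The sources used here give neither the Cre driver nor the deleted exons, and all 4 titles carry the word Ctrl, whose meaning is not given either. Whether the libraries of a group stem from different mice is not stated, and p-values therefore cover the spread between libraries, technical or not.

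In canonical NF-kB signalling, ubiquitin chains built at a receptor bring TAK1 and the IKK complex together, TAK1 activates IKK-beta, and IKK-beta marks the inhibitor IkB-alpha for destruction. NEMO has no kinase activity and binds the chains. In the noncanonical route NIK activates IKK-alpha, which leads to the processing of p100, the product of Nfkb2. TBK1 and IKK-epsilon phosphorylate IRF3 and IRF7, and TAK1, IKK and TBK1 with IKK-epsilon also phosphorylate RIPK1 in the TNF receptor complex and restrain its killing activity. In T cells the antigen receptor reaches the IKK complex through a complex that holds BCL10 and MALT1. These kinases are regulated largely by phosphorylation and by protein turnover, and a transcript level is not a measure of kinase activity.

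Promoter stretches are shown for Map3k7, Tbk1 and Ikbke, because these 3 transcripts passed the test of the comparison. They run from 250 to 51 bases before the start of the gene in RefSeq (build GRCm38.p6), and capitals mark a match to the NF-kB consensus.
Map3k7 (chr4:31963857-31964056, plus strand): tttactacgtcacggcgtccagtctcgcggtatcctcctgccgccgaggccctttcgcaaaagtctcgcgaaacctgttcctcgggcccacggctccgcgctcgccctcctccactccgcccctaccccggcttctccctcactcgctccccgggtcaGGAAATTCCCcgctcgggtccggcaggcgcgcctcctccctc
Tbk1 (chr10:121586845-121587044, minus strand): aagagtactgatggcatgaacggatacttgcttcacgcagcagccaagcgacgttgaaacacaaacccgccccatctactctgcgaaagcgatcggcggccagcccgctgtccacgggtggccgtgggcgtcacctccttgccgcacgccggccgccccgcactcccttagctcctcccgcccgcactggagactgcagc
Ikbke (chr1:131279614-131279813, minus strand): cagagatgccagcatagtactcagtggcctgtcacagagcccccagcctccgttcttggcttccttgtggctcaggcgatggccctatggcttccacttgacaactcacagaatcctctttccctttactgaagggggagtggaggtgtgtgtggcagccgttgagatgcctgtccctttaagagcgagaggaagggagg
Of the 7 genes, 6 had such stretches in the table (Chuk, Ikbkg with 4, Ikbke, Tbk1, Map3k7 and Map3k14), and Ikbkb had no entry. Only the Map3k7 stretch, among these 9, held the NF-kB consensus, on the strand opposite to the gene at position -92 from its start (GGAAATTCCC as read on the strand of the gene); 3.13% of 32851 stretches of the same length hold it. None of the 9 held the ETS motif (CCGGAAG, in 3.98% of all stretches) or the cyclic AMP response element (TGACGTCA, 0.828%), with both strands searched. The GC box (GGGCGG, in 24.6% of all stretches) stood 3 times in Tbk1, 1 time in Map3k7 and 2 times in the first Ikbkg stretch. The Tbk1 and Map3k7 stretches held 20 and 24 CpG dinucleotides and the Ikbke stretch 4, the same as the median of all stretches (4). A match is a match of letters and says nothing of binding.

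The targeted gene was checked first. Ripk1, for the kinase that the TNF receptor recruits, measured 5.61 FPKM (WT 1), 5.60 FPKM (WT 2), 10.4 FPKM (KO 1) and 9.54 FPKM (KO 2) (FPKM, fragments normalised to transcript length and library total). The targeted transcript was therefore not lower in the libraries labelled KO, and every direction here is that of the library labels; a loss of single exons cannot be read from a gene-level value. The T cell genes Cd3e and Cd4 were between 61.3 and 210.6 FPKM in every library, whereas of the CD8 T cell genes Cd8a was below 1 FPKM and Cd8b1 between 10.3 and 11.3 FPKM. Cd3e measured 61.3 FPKM (WT 1), 76.9 FPKM (WT 2), 151.3 FPKM (KO 1) and 128.7 FPKM (KO 2). In the same order Cd4 measured 86.3, 87.3, 210.6 and 185.3 FPKM. Cd3d went the other way, at 185.1, 238.4, 175.5 and 169.2 FPKM. The 7 T cell rows summed to 894, 1115, 1390 and 1285 FPKM. Of these rows 3 were called higher and 0 lower as deposited (limma, adjusted p under 0.05), beside 25.6% and 1.0% of all genes tested. Depth, read from the steps of the lowest values with an assumed fragment length of 200 nt, was about 17500000 to 22100000 fragments per library. With the longest annotated transcript of each gene, the members then rested on about 414 fragments (Map3k14 in WT 1) to 4840 (Ikbke in KO 2). Counting error alone is at most 4.91% on that assumption. Shorter transcripts would give fewer fragments and a larger error. As deposited, the median of the 11074 genes tested was higher by 0.38 (log2) in the libraries labelled KO, and after trimmed-mean scaling this median was 0.01. Changes of members are therefore given both as deposited and relative to the median gene.

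Among the 7 genes, Tbk1, Map3k7 and Ikbke rose as deposited in the libraries labelled KO, by 1.67-fold to 1.82-fold, and Ikbkb, Chuk, Ikbkg and Map3k14 did not pass the test. The count of 3 of 7 stands beside 25.6% of all tested genes that were called higher (limma on log2(FPKM + 1), adjusted p under 0.05), and 0 of 7 were called lower, beside 1.0% of all. For 6 of 7 members both libraries labelled KO lay above both wild-type libraries, as they did for 58.5% of all genes tested, and for 0 of 7 below them (12.1% of all). In bulk samples such as these, more cells of a type and more RNA per cell cannot be told apart. The median change of the 7 was 0.72 on the log2 scale, or 0.35 above the median gene. After trimmed-mean scaling none of the 7 passed in limma in either direction (1 higher and 0 lower at an unadjusted p under 0.05), beside 4.52% of all genes called higher and 3.75% called lower. Quantile normalization also left none in limma (2 higher and 0 lower at an unadjusted p under 0.05), beside 1.62% of all genes called higher and 0.695% lower. At an unadjusted p under 0.05, 17.8% of all genes were higher and 17.3% lower after trimmed-mean scaling (limma), and 16.2% and 17.6% with quantiles matched.

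**Figure D1:**
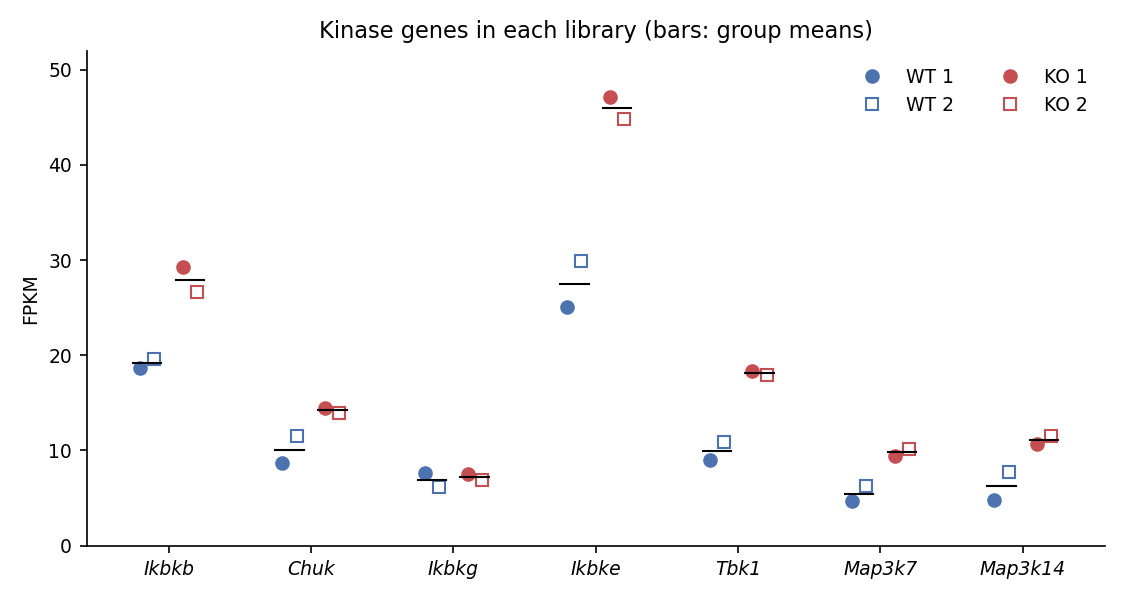
FPKM of the 7 kinase genes in each library (blue, wild type; red, libraries labelled KO; filled circles, libraries 1; open squares, libraries 2), with black bars at the group means of 2 libraries. Ikbke is the most abundant in all 4 libraries, and Ikbkg is the gene whose groups overlap.

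Tbk1, the kinase of IRF3 and of RIPK1, was at 9.03 FPKM in WT 1, 10.9 FPKM in WT 2, 18.3 FPKM in KO 1 and 17.9 FPKM in KO 2. Both libraries labelled KO were above both wild-type libraries, and the lower of them was 1.64 times the higher wild-type value. On the log2 scale Tbk1 differed by 0.81 ± 0.19 (SE; adjusted p in limma, 0.0265), which was 0.43 above the median gene and higher than that of 80.6% of all genes tested. Ikbke, the inducible relative of Tbk1, measured 25.1 FPKM (WT 1), 29.9 FPKM (WT 2), 47.2 FPKM (KO 1) and 44.8 FPKM (KO 2). Its groups were also apart, with a log2 change of 0.72 ± 0.21 (SE; adjusted p in limma, 0.0421), or 0.35 above the median gene. After trimmed-mean scaling the log2 changes of Tbk1 and Ikbke were 0.39 and 0.28 and neither passed (limma adjusted p = 0.125 and 0.217). Leaving out WT 1, KO 1 or KO 2 also ended both calls, with adjusted p from 0.0737 to 0.102 for Tbk1 and from 0.112 to 0.299 for Ikbke in limma.

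Map3k7, which encodes TAK1, was at 4.68 FPKM in WT 1, 6.22 FPKM in WT 2, 9.44 FPKM in KO 1 and 10.2 FPKM in KO 2. Its groups did not overlap, and WT 1 was the lowest library. The log2 change of Map3k7 was 0.75 ± 0.19 (SE; adjusted p in limma, 0.0333), or 0.37 above the median gene. It did not pass after trimmed-mean scaling (log2 change 0.36, limma adjusted p = 0.183) or without WT 1 or KO 2 (adjusted p = 0.128 and 0.0813, limma). Map3k14, the kinase NIK that the noncanonical receptors stabilise, measured 4.80 FPKM (WT 1), 7.74 FPKM (WT 2), 10.7 FPKM (KO 1) and 11.5 FPKM (KO 2). The wild-type libraries differed from each other by more than those labelled KO, at 6.27 ± 2.08 against 11.1 ± 0.579 FPKM (SD, n = 2 and 2). Its log2 change of 0.76 ± 0.24 (SE) missed the threshold (limma adjusted p = 0.0532, 95% interval of the change 0.20 to 1.32). Map3k14 passed without WT 2, the higher wild-type library, at a log2 change of 1.06 (limma adjusted p = 0.042), and its change without WT 1 was 0.47.

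Within the IKK complex, Ikbkb measured 18.7 FPKM (WT 1), 19.7 FPKM (WT 2), 29.3 FPKM (KO 1) and 26.6 FPKM (KO 2). The groups of Ikbkb did not overlap, but its log2 change of 0.52 ± 0.19 (SE) did not pass (limma adjusted p = 0.0834, 95% interval 0.07 to 0.97) and lay 0.14 above the median gene. Chuk, the partner kinase IKK-alpha, measured 8.71 FPKM (WT 1), 11.5 FPKM (WT 2), 14.5 FPKM (KO 1) and 14.0 FPKM (KO 2). It was 0.09 above the median gene, with a log2 change of 0.47 ± 0.20 (SE; adjusted p in limma, 0.126) and a 95% interval from -0.01 to 0.95. These intervals hold both no change beyond the median gene and a change as large as that of Tbk1.

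Ikbkg, the scaffold NEMO, was at 7.58 FPKM in WT 1, 6.16 FPKM in WT 2, 7.49 FPKM in KO 1 and 6.87 FPKM in KO 2. Its groups overlapped, with the values of both libraries labelled KO between those of WT 2 and WT 1. The log2 change of Ikbkg was 0.06 ± 0.18 as deposited (SE, limma adjusted p = 0.821, 95% interval -0.38 to 0.50), which is -0.32 relative to the median gene, and it was -0.34 after trimmed-mean scaling (limma adjusted p = 0.27). Only 26.9% of all genes tested had a lower change. In the GENCODE M21 annotation (GRCm38), 5.15% of the exon bases of Ikbkg overlap exons of G6pdx on the opposite strand, and the labels name no step of the library kit that keeps the strand, so reads there cannot be told apart. G6pdx, of the pentose phosphate pathway, measured 3.74 FPKM (WT 1), 3.93 FPKM (WT 2), 12.3 FPKM (KO 1) and 7.08 FPKM (KO 2), and its part in the value of Ikbkg was not tested.

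**Figure D2:**
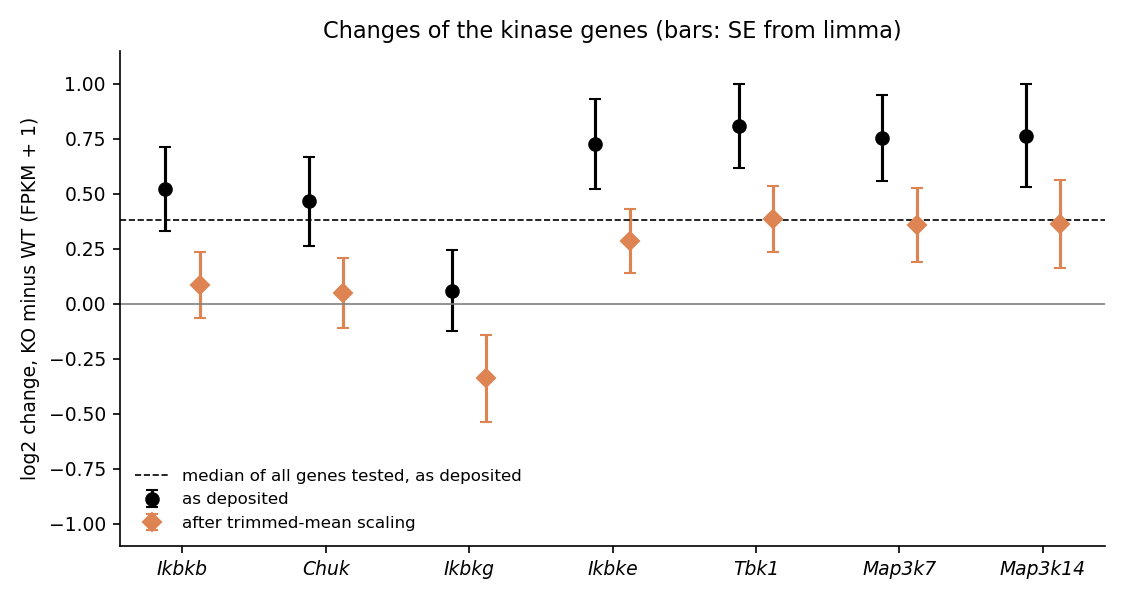
Log2 changes of the 7 kinase genes, libraries labelled KO minus wild type, on the log2(FPKM + 1) scale with SE from limma (n = 2 and 2), as deposited (black circles) and after trimmed-mean scaling (orange diamonds). The dashed line is the median of all genes tested as deposited (0.38); 6 of the 7 genes lie above it as deposited, Ikbkb and Chuk by 0.14 and 0.087, and Ikbkg lies below it.

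Ratios of members within a library do not change when all its values are multiplied by the same factor, and 6 ratios were compared. Quantile normalization is not of that kind, and the ratios were not computed after it. With 2 libraries against 2, the exact permutation test cannot give a two-sided p under 0.333, so none of them can pass. Tbk1 was 0.483 (WT 1), 0.555 (WT 2), 0.626 (KO 1) and 0.673 (KO 2) times Ikbkb, a log2 difference of 0.33 ± 0.11 (SE). Map3k7 was 0.250 and 0.317 times Ikbkb in the wild type and 0.322 and 0.382 times in the libraries labelled KO, a log2 difference of 0.32 ± 0.21 (SE), with WT 2 and KO 1 nearly equal. Map3k14 was 0.551 and 0.673 times Chuk in the wild type and 0.738 and 0.824 times in the libraries labelled KO (log2 difference 0.36 ± 0.17, SE). The scaffold Ikbkg was 0.405 (WT 1), 0.314 (WT 2), 0.256 (KO 1) and 0.258 (KO 2) times Ikbkb, a log2 difference of -0.47 ± 0.19 (SE). Of the 4 ratios above, those of Tbk1, Map3k7 and Ikbkg share the denominator Ikbkb and are not separate results. How often ratios of other genes have groups apart was not computed. Each of these 4 ratios had groups that did not overlap (exact permutation p = 0.333, two-sided, adjusted p = 0.4 over the 6 ratios). Their size depended on single libraries: without WT 1 the log2 differences were 0.15 for Map3k7 over Ikbkb, 0.21 for Map3k14 over Chuk and -0.29 for Ikbkg over Ikbkb, and without KO 2 that of Map3k7 over Ikbkb was 0.20. Without WT 2 that of Map3k7 over Ikbkb was 0.49.

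The ratio of Ikbke to Tbk1 was the most even of the 6 among libraries, at 2.78 (WT 1), 2.74 (WT 2), 2.57 (KO 1) and 2.50 (KO 2). It was lower in both libraries labelled KO by a log2 difference of -0.12 ± 0.02 (SE), with the same exact permutation p of 0.333. With quantiles matched the log2 change was 0.42 for Ikbke and 0.40 for Tbk1, an order opposite to that of this ratio. The ratio of Chuk to Ikbkb, the catalytic kinases of the IKK complex, overlapped between groups, at 0.466 and 0.585 in the wild type and 0.494 and 0.524 in the libraries labelled KO (exact permutation p = 1.0).

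**Figure D3:**
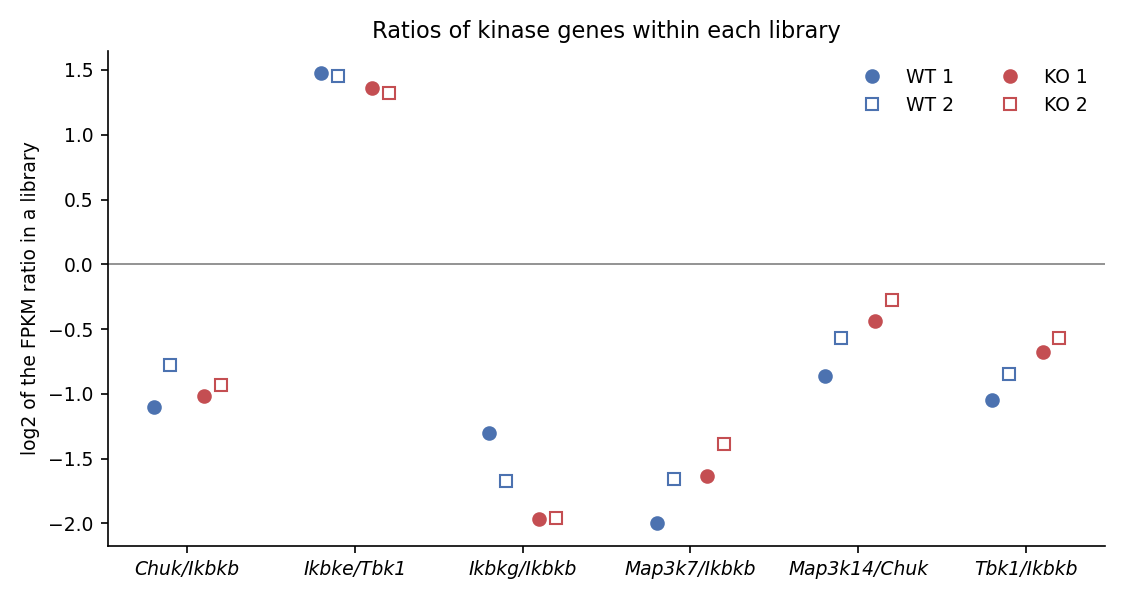
Log2 of the ratio of FPKM values of a pair of kinase genes in each library, with symbols as in the plot of levels by library. The groups overlap for Chuk over Ikbkb, lie lower in the libraries labelled KO for Ikbke over Tbk1 and Ikbkg over Ikbkb, and lie higher for the other 3 ratios.

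By level, which FPKM gives per length of transcript, Ikbke came first and Ikbkb second in all 4 libraries. In the wild type, Ikbke averaged 27.5 ± 3.41 FPKM (SD, n = 2) and Ikbkb 19.2 ± 0.667, followed by Chuk (10.1 ± 1.97) and Tbk1 (9.97 ± 1.32), whose ranges overlapped. Ikbkg (6.87 ± 1.0), Map3k14 (6.27 ± 2.08) and Map3k7 (5.45 ± 1.09) also overlapped with their neighbours in that order. In the libraries labelled KO no neighbours overlapped, and the order was Ikbke (46.0 ± 1.68 FPKM), Ikbkb (28.0 ± 1.87), Tbk1 (18.1 ± 0.279), Chuk (14.2 ± 0.370), Map3k14 (11.1 ± 0.579), Map3k7 (9.81 ± 0.522) and Ikbkg (7.18 ± 0.439). Ikbkg was the fifth in WT 1 and the last in WT 2, KO 1 and KO 2. Among all genes tested, Ikbke stood above 87.9% to 91.3% in the 4 libraries, and Map3k7 above 47.5% to 59.0%.

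The shapes of the 4 values were not special to these kinases. By the root mean square difference of centred log2 values over the 4 libraries, the nearest gene to Tbk1 was Yipf3, to Ikbke Cab39, to Map3k7 Usp33, to Map3k14 Pabpc4, to Ikbkb Ocel1, to Chuk U2af2 and to Ikbkg Zfp68. These differences were between 0.0046 and 0.018. Between 36 (Map3k14) and 136 (Ikbkb) other tested genes lay within 0.05 of a member, so 4 libraries do not single out a partner.

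The proteins that these kinases work with were read from 8 lists with 79 genes, of which 72 were tested. As deposited, 40 of the 72 rose and 0 fell in the libraries labelled KO, and 0 had an unadjusted p under 0.05 for a lower value (limma). The 40 are 55.6% of the genes tested in these lists, beside 25.6% of all tested genes, and the median change was 0.87 against 0.38 for all genes (log2). The lists were chosen with earlier results of these data known, so these shares are not an independent test of the pathways. After trimmed-mean scaling 10 rose, beside 4.52% of all genes, and 0 fell, with 3 lower at an unadjusted p under 0.05 (limma), beside 17.3% of all genes. With quantiles matched 6 rose, beside 1.62% of all genes. Without WT 1 none passed in limma (41 higher at an unadjusted p under 0.05, beside 28.1% of all genes), when 9 genes passed in the whole table. Of the 72, 3 (Optn, Mx1 and Rsad2) entered the test only through the libraries labelled KO, and 2 of them (Optn and Mx1) rose. Not tested for low values were Tbkbp1, Tnip3, Ltbr, Cd40, Tnfrsf13c, Ifi44 and Oasl1.

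Of 10 partners and targets of TAK1, 6 rose (median log2 change 0.73). Tab2, the ubiquitin-binding subunit of the TAK1 complex, rose 1.95-fold (limma adjusted p = 0.0218) and Tab1, its activating subunit, 2.36-fold (limma adjusted p = 0.0216). Map2k3, a kinase of the p38 pathway, rose from a mean of 6.89 ± 2.09 FPKM to 16.9 ± 1.29 FPKM (SD over 2 and 2 libraries, limma adjusted p = 0.0178), and Mapk9, which encodes JNK2, rose 1.89-fold (limma adjusted p = 0.025). None of the 10 passed after trimmed-mean scaling in limma (smallest adjusted p = 0.0543, Map2k3).

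Of 9 tested adaptors and targets of TBK1 and IKK-epsilon, 4 rose (median 0.78). Tank, a scaffold that binds both kinases, rose from a mean of 16.3 ± 3.86 FPKM to 44.7 ± 6.09 FPKM (SD over 2 and 2 libraries, limma adjusted p = 0.0146) and was the 1 gene of this list that also passed after trimmed-mean scaling (limma adjusted p = 0.0353). Traf3, which links receptors to TBK1 and holds NIK for degradation, rose 2.65-fold (limma adjusted p = 0.0171). Optn (optineurin) rose 3.59-fold from 0.384 FPKM, and Ticam1, the adaptor TRIF, 1.92-fold (limma adjusted p = 0.0355 and 0.0341).

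Of 9 tested factors that bind NEMO or build linear ubiquitin chains, 5 rose (median 0.77). Tnip1, the NEMO-binding protein ABIN-1, rose 2.46-fold (limma adjusted p = 0.0142, and 0.0371 after trimmed-mean scaling). Sharpin and Rnf31, which belong to the linear ubiquitin ligase, rose 1.91-fold and 1.80-fold (limma adjusted p = 0.0258 and 0.0321), and Ripk1 itself 1.78-fold (limma adjusted p = 0.0262, and 0.192 after trimmed-mean scaling). Tnfaip3, the editor A20, measured 56.8 FPKM (WT 1), 207.9 FPKM (WT 2), 143.9 FPKM (KO 1) and 447.7 FPKM (KO 2) (limma adjusted p = 0.226). It was thus higher in library 2 of both groups, with overlapping groups; it is named here after its values were seen.

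Of 8 genes of the route from the antigen receptor to IKK, 5 rose (median 0.68). Malt1, of the complex that recruits IKK, rose 2.13-fold (limma adjusted p = 0.0208), and Pdpk1 and Traf6 1.74-fold and 1.84-fold (limma adjusted p = 0.0285 and 0.0355). None of the 8 passed after trimmed-mean scaling in limma (adjusted p = 0.0731 for Malt1).

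On the side of NIK, 5 of 7 tested genes rose as deposited (median 1.29) and 3 after trimmed-mean scaling. Nfkb2, whose product p100 is processed on the action of NIK and IKK-alpha, rose from a mean of 6.65 ± 0.827 FPKM to 21.9 ± 2.14 FPKM (SD over 2 and 2 libraries, limma adjusted p = 0.0115, and 0.0206 after trimmed-mean scaling). The TNF receptor family members Tnfrsf4 (OX40) and Tnfrsf1b (TNFR2) rose 5.34-fold and 3.65-fold (limma adjusted p = 0.0115 and 0.0136), and Birc3, the ligase cIAP2 that takes part in NIK degradation, 2.04-fold (limma adjusted p = 0.0242).

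Of 6 canonical NF-kB subunits and inhibitors 4 rose (median 1.17), with Nfkb1 at 2.44-fold (limma adjusted p = 0.016), Nfkbie at 2.30-fold (0.02), Rela at 1.88-fold (0.0224) and Rel at 2.81-fold (0.034), and of these Nfkb1 also passed after trimmed-mean scaling (limma adjusted p = 0.0418). Of 15 NF-kB responsive genes 9 rose (median 1.03) and 4 also after trimmed-mean scaling, namely Tnf (2.94-fold, limma adjusted p = 0.0131), Icam1 (3.50-fold, 0.0143), Tnfrsf9 (2.80-fold, 0.0151) and Cd83 (3.62-fold, 0.0164). The Bcl2a1 copies in this list are near-identical and their values are uncertain. Of 8 tested IRF3 responsive genes 2 rose as deposited and none after trimmed-mean scaling in limma. They were Cxcl10, a chemokine (0.675, 4.27, 20.5 and 11.4 FPKM in WT 1, WT 2, KO 1 and KO 2; limma adjusted p = 0.0216), and Mx1, an antiviral GTPase (0.364, 0.597, 10.7 and 2.21 FPKM in the same order; limma adjusted p = 0.0351). In this list the level of all 8 tested genes was highest in KO 1, and the 25.0% called higher is near the 25.6% of all genes. Both libraries labelled KO lay above both wild-type libraries for 3 of the 8, beside 58.5% of all genes tested. In KO 2, Isg15 (20.8 FPKM), Usp18 (3.12 FPKM) and Ifit2 (8.36 FPKM) were below both wild-type libraries. These genes are named here after their values were seen.

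**Figure D4:**
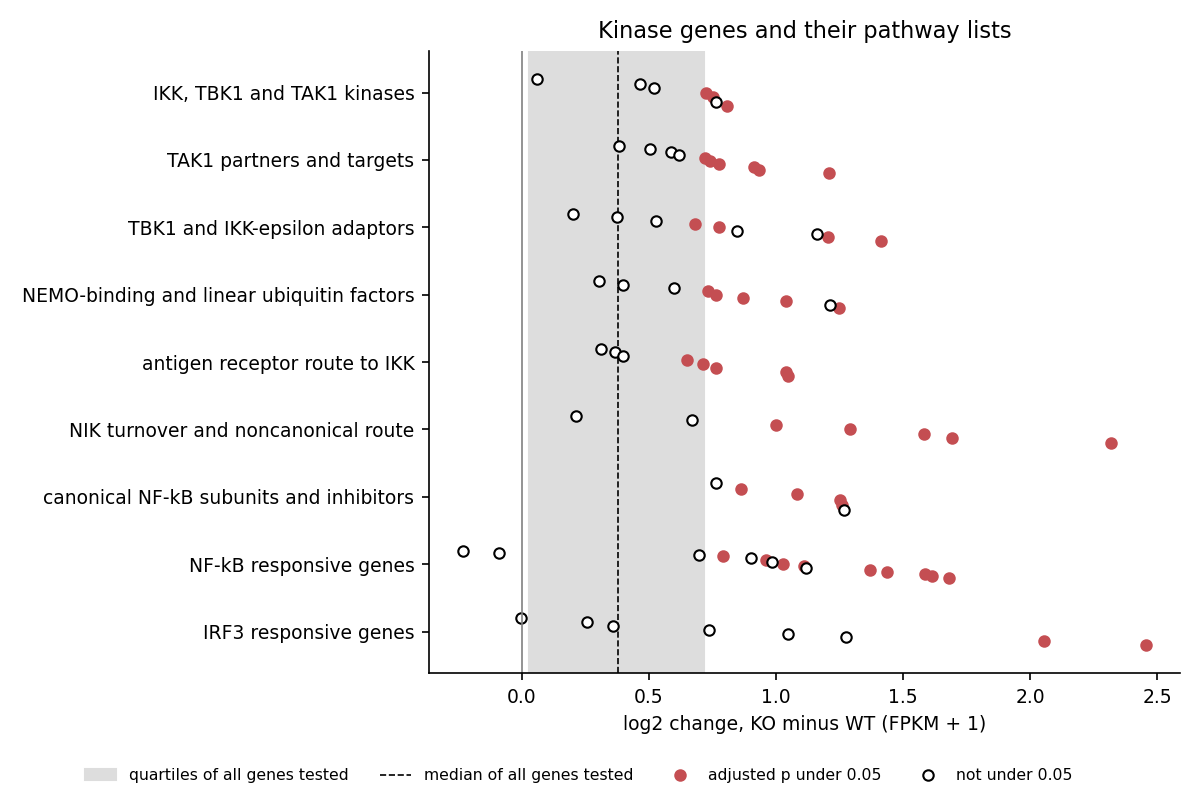
Log2 change of each tested gene, libraries labelled KO minus wild type, on the log2(FPKM + 1) scale as deposited, for the 7 kinase genes and the 8 lists of their pathways (red, limma adjusted p under 0.05; open, not). The grey band runs from the lower to the upper quartile of all 11074 genes tested (0.03 to 0.72) and the dashed line is their median; 4 of the 7 kinase genes lie at or beyond the upper edge of the band.

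Markers of other cell types were measured beside these values. The 10 rows of erythroid markers summed to 6.33 FPKM (WT 1), 99.4 FPKM (WT 2), 396.0 FPKM (KO 1) and 321.4 FPKM (KO 2). The globin Hba-a2 made up much of this sum (2.07, 32.3, 140.0 and 110.7 FPKM on its first row). Of the 10 rows 6 were called higher as deposited, among them Alas2 and Slc4a1, which entered the test only through the libraries labelled KO. The 9 monocyte and macrophage markers summed to 2.29 FPKM (WT 1), 3.89 FPKM (WT 2), 7.82 FPKM (KO 1) and 9.09 FPKM (KO 2), with 6 of the 9 under 1 FPKM in every library. Of their 2 rows tested, 1 was called higher and 0 lower as deposited. The 8 B cell markers summed to 25.8 FPKM (WT 1), 21.5 FPKM (WT 2), 27.2 FPKM (KO 1) and 26.4 FPKM (KO 2), of which Fcer2a gave 19.2, 14.8, 12.4 and 12.4 FPKM. The other 7 B cell markers summed to 6.62 FPKM (WT 1), 6.77 FPKM (WT 2), 14.8 FPKM (KO 1) and 14.0 FPKM (KO 2). Of the 4 B cell rows tested, 2 were called higher as deposited, Cd22 (1.84, 1.69, 4.93 and 4.41 FPKM) and Cd79b (0.842, 0.861, 3.76 and 3.03 FPKM), of which Cd79b entered the test only through the libraries labelled KO. Cd79a was tested and not called, at 3.19 FPKM (WT 1), 3.13 FPKM (WT 2), 2.93 FPKM (KO 1) and 4.90 FPKM (KO 2). Its KO 1 value was below both wild-type libraries. The B cell marker Ms4a1 measured 0.327 FPKM (WT 1), 0.584 FPKM (WT 2), 1.25 FPKM (KO 1) and 0.701 FPKM (KO 2). Neutrophil markers were high in library 2 of each group (4.29, 44.8, 21.5 and 52.2 FPKM in WT 1, WT 2, KO 1 and KO 2). Plasma cell markers summed to 5.17 FPKM (WT 1), 6.90 FPKM (WT 2), 8.23 FPKM (KO 1) and 11.4 FPKM (KO 2). Dendritic cell markers summed to 34.2 FPKM (WT 1), 27.5 FPKM (WT 2), 24.8 FPKM (KO 1) and 25.7 FPKM (KO 2). No tested row of either list was called higher or lower as deposited. Marker sums of NK and CD8 T cells and platelets were between 0.937 and 11.6 FPKM. The part of these cells in the values of the 7 kinase genes was not tested.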

How the data were processed

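Direct-zol kits were used for RNA, of which 200 ng went into each of 4 NEBNext Ultra libraries, per the labels' protocols. The 4 deposited tables give FPKM by gene symbol, per the file headers, with no pooling of libraries by the authors. Per the submitters' processing notes, Bowtie 0.12.2 and the build mm8 were used; the sources used here do not say how FPKM was computed. FPKM is relative to the mapped total, so a few abundant genes can shift all others.

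Values were tested with limma 3.58.1 (R 4.3.3, intensity trend) on log2(FPKM + 1), over 11074 rows with at least 1 FPKM in at least 2 libraries. Tests were two-sided with Benjamini-Hochberg adjustment over all rows and a threshold of 0.05. Log2 changes on this scale understate those of low genes; folds are ratios of mean FPKM. Trimmed-mean scaling was an own implementation (trimming 30% of the log ratios and 5% of the levels per side; factors 0.799, 0.914, 1.20 and 1.14). No test for counts was run, since the deposited values are FPKM and not counts. Of the low values set against WT 1, 35.2% to 39.0% lay on steps of whole fragments within 0.01 (log2). For shifted steps, used as a control, the share was 3.59% to 4.24%.

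The 7 members and the lists were chosen with earlier results of these data known. The text names all members and Ripk1, up to 4 genes of each pathway list by unadjusted p, and the nearest gene to each member. The markers named did not follow a rule by level. Cd3g and Lck had the highest means of the T cell markers. Cd3d, Cd3e, Cd4, Cd22, Cd79b, Ms4a1, Alas2 and Slc4a1 were named outside such a rule. Of 147 list symbols 4 were matched by a synonym and 1 was not matched. On simulated data (11074 genes, 200 raised, none lowered), 2-fold changes were recovered for 31.7% of genes and 4-fold changes for 97.8%. Of the calls 12.1% were false, more than the 5% aimed at. The simulation used normal noise with the fitted spread and no shift of the median gene. The real median change was 0.38 (log2), so these rates may not hold for the real libraries. Alternatives were each library left out, a replicate block, pseudocounts of 0.1 and 5, other filters, 3 scalings and other forms of limma.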

Additional observations from a re-analysis of the deposited data

How the results depend on the processing

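The log2 changes of the kinase genes other than Ikbkg kept their direction under all 14 alternatives. Whether Tbk1, Ikbke, Map3k7 and Map3k14 were called depended on the setting, whereas Ikbkb and Chuk were called in none. Members called higher (3 as deposited) numbered 0 with no filter, with trimmed-mean scaling, with quantile normalization and with centring on the median, and 0 to 4 on leaving out 1 library. In these 4 settings, in that order, the log2 changes were 0.81, 0.39, 0.40 and 0.34 for Tbk1, 0.72, 0.28, 0.42 and 0.26 for Ikbke, and 0.75, 0.36, 0.30 and 0.29 for Map3k7. With no filter only 3 genes of the whole table were higher and 0 lower (limma; 4604 and 541 by unadjusted p under 0.05), and 0 pathway genes were higher. Ikbkg turned negative without WT 2 (-0.071) and with the 3 scalings, trimmed-mean (-0.34), quantile (-0.40) and median centring (-0.40). The causes of these losses were not tested. Map3k14 passed with the replicate number as a block (0.76), with a pseudocount of 5 (0.53), with the stricter filter of 5 FPKM (0.76) and with robust moderation (0.76).

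All genes called higher or lower numbered 501 and 415 after trimmed-mean scaling, 179 and 77 with quantiles matched and 458 and 805 after centring, against 2832 and 111; the lower count was 230 with the replicate block and 171 with robust moderation. Pathway genes called higher numbered 10, 6 and 11 after these scalings. The numbers in the titles do not pair the libraries by any label, and deviations of same-numbered libraries had a correlation of 0.11 across genes. With the replicate block 4 members and 56 pathway genes were higher, beside 3909 of all 11074 genes tested.

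On leaving out 1 library, 9 to 2189 genes were higher and 0 to 123 lower, and 0 to 36 pathway genes were higher. The log2 changes ran from 0.45 to 0.59 (Ikbkb), 0.28 to 0.65 (Chuk), -0.071 to 0.19 (Ikbkg), 0.60 to 0.85 (Ikbke), 0.68 to 0.93 (Tbk1), 0.58 to 0.93 (Map3k7) and 0.47 to 1.06 (Map3k14), and for Ripk1 from 0.67 to 0.79. The log2 difference of the Chuk to Ikbkb ratio ran from -0.20 to 0.13; the other 5 kept their sign, from 0.23 to 0.43 (Tbk1 over Ikbkb), 0.15 to 0.49 (Map3k7 over Ikbkb), 0.21 to 0.50 (Map3k14 over Chuk), -0.66 to -0.29 (Ikbkg over Ikbkb) and -0.14 to -0.10 (Ikbke over Tbk1).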
